A study of Ovis aries with 12 samples.

Results

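The comparison described here sets 3 libraries labelled high fertility, Co-H 1 to 3, against 3 labelled low fertility, Co-L 1 to 3, from the ovary and corpus luteum of sheep. These 6 of the 12 RNA sequencing libraries of the study were taken by their titles. The other 6, T-L 1 to 3 and T-H 1 to 3, came from endometrium and have the same low and high labels. Within Co the labels give ovary for 5 libraries and corpus luteum for Co-H 3, while the file headers call all 6 CL. No breed, age, cycle stage, treatment or definition of fertility is given in the sources used here, nor what Co and T stand for. The design text speaks of pooled samples without saying how many animals a pool holds, so a p-value here reflects only how much these libraries vary, which may be technical.

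The ovary holds follicles, stroma and vessels, and after ovulation the wall of the emptied follicle becomes the corpus luteum. Luteal cells take up and make cholesterol and turn it into progesterone, the hormone that prepares the endometrium and maintains early pregnancy. A piece of ovary and a piece of corpus luteum therefore hold different mixtures of cells. In bulk tissue such as this, fewer cells of a type and less RNA per cell cannot be told apart.

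Counts were given for 24616 genes under cattle identifiers. The files give no gene names beside them, and a sheep gene table held 0 of the 24616. Genes are therefore described by abundance, spread, separation and size of change, with few identifiers, and the labelled tissue could not be checked against marker genes. Total counts were 12665680 to 17852552 per Co library. Levels are given in CPM, read counts scaled to a common library total, here after TMM adjustment, which corrects library totals for composition. The 14839 genes with enough counts are called tested genes, and 41 of them had no count in any Co library.

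The high and low labels did not divide the 6 libraries into 2 compact sets. By the share of tested genes at least 2-fold apart, Co-H 2 and Co-H 3 were the most alike of the 15 pairs, at 5.78%. This was so although the labels give ovary for the former and corpus luteum for the latter. By the Pearson correlation of log2 CPM, Co-L 1 and Co-H 1 came first, at 0.982 against 0.981 for Co-H 2 and Co-H 3. Co-H 1 was nearer to the low-fertility libraries Co-L 1 and Co-L 2, with 6.52% and 9.34% of genes 2-fold apart, than to Co-H 2 and Co-H 3, with 12.3% and 14.99%. Co-L 3 stood 13.5% and 17.1% from the other Co-L libraries and 18.9% to 26.6% from the Co-H libraries. Counts of changed, separated and called genes are given below also without Co-H 1, Co-H 3 or Co-L 3.

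**Figure D1:**
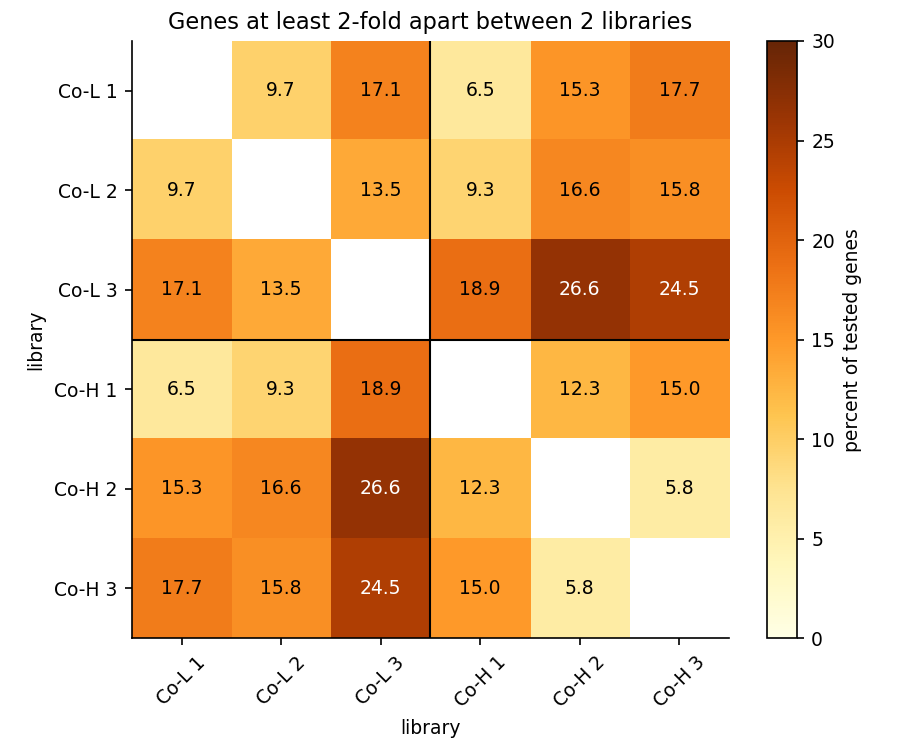
Percent of the 14839 tested genes at least 2-fold apart on log2 CPM for each pair of Co libraries, with lines between the Co-L and Co-H groups and the colour scale from 0 to 30%. Co-H 2 and Co-H 3 differ least (5.78%), Co-H 1 is closer to Co-L 1 (6.52%) than to either of them, and Co-L 3 is far from every library.

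The first principal component of the 6 libraries held 46.5% of the variance of log2 CPM. On it the Co-H libraries, from −49.0 to −20.7, lay below the Co-L libraries, with Co-L 1 at −10.7, Co-L 2 at 17.7 and Co-L 3 far out at 95.3. The distance from Co-H 1 to Co-L 1 was thus smaller than that between the members of either group taken end to end. The second component, with 28.4%, placed Co-L 3, Co-H 2 and Co-H 3 at 22.4 or above and Co-H 1, Co-L 1 and Co-L 2 at −16.4 or below.

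Co-L 3 also carried transcripts that the other Co libraries nearly lacked. In it 85 genes stood at 10 CPM or more of the unadjusted total while all 5 other Co libraries were under 1 CPM, and no other Co library had a gene of this kind. These 85 genes took 0.440% of the counts of Co-L 3 (95% Wilson interval 0.437% to 0.444%, counting error only), against 0.00063% to 0.00161% in the other Co libraries. The highest stood at 1041 CPM, the median at 21.5 CPM, and 18 had no count in any other Co library. In the 6 endometrium libraries the same genes took 0.0975% to 0.145% of the counts. Of the 85, 25 were at 1 CPM or more in all 6 endometrium libraries and 42 were under 1 CPM in all of them. The set was picked on these values and is a description. Only 38 of them were tested. That all 38 were at least 2-fold lower in Co-H follows from how they were picked. Of these 38, 2 were called, beside 4.78% of all tested genes called in either direction and 2.32% called lower.

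Measures of depth and composition did not pass a test between the groups. Genes with at least 1 count numbered 16496 ± 135 in Co-L and 16680 ± 646 in Co-H (SD, n = 3 each), with Co-H 1 lowest of the 6 at 15935 and Co-H 2 highest at 17091. The TMM factor was 0.792 ± 0.064 in Co-L and 0.941 ± 0.082 for Co-H, with Co-H 1 at 0.847, inside the range of Co-L. For these measures, total counts and the share of the 10 most abundant genes, the exact two-sided permutation p over 20 regroupings was 0.2 to 0.8, where 3 against 3 libraries cannot go below 0.1 (4 measures, each with a Benjamini-Hochberg adjusted p of 0.8). The part of composition in the results that follow was not tested beyond the change of scaling given beside them.

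Most expressed genes differed little between the groups. The log2 change, Co-H minus Co-L from the edgeR model, had a median of −0.07 and lay between −0.39 and 0.30 for the middle of the genes, from the 25th to the 75th percentile. Within 2-fold were 12824 of 14839 genes (86.4%). At least 2-fold higher in Co-H were 921 genes and at least 2-fold lower 1094, with 208 and 388 past 4-fold. The median size of the log2 change, taken without its sign, was 0.35. Between T-H and T-L, fitted in the same model, it was 0.15, and 789 genes were at least 2-fold apart against 2015 in Co. These values are set side by side and their difference was not tested.

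Genes at 2-fold or more were of lower abundance than the rest, and 1 library of the higher group often stood apart in them. The median level over the 6 Co libraries was 17.9 CPM for all tested genes, 4.13 CPM for those 2-fold higher and 1.96 CPM for those 2-fold lower. Among the 921 genes 2-fold higher, Co-H 1 was the lowest Co-H library in 828 (89.9%). Their median SD of log2 CPM was 0.90 within Co-H and 0.35 within Co-L. Among the 1094 genes 2-fold lower, Co-L 3 was the highest Co-L library in 782 (71.5%), and the median SD was 1.12 within Co-L and 0.49 within Co-H. Large differences in either direction thus went with a wide spread in the group that was higher. Over all tested genes Co-H 1 was the library farthest from the middle one of Co-H in 56.65%, in either direction. For Co-L 3 within Co-L this share was 45.7%. Without Co-L 3 the genes 2-fold lower numbered 608 and those 2-fold higher 1270. Without Co-H 1 these numbers were 1187 and 1580, and without Co-H 3, the library labelled corpus luteum, 1335 and 718.

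All 3 libraries of one group lay beyond all 3 of the other for 3433 tested genes (23.1%), beside 4.78% of tested genes called in either direction. Co-H lay above Co-L in 1435 of them (9.67%, beside 2.46% called higher) and below in 1998 (13.5%, beside 2.32% called lower). The direction of this split depended on scaling and on single libraries. With library totals in place of TMM factors 2668 genes lay above and 914 below. With both TMM factors and count filter taken from the 6 Co libraries alone 1728 lay above and 1625 below, among 13502 genes tested. Leaving out Co-H 1 gave 4031 above and 3484 below among 15181 genes tested, leaving out Co-L 3 2298 and 2339, and leaving out Co-H 3 1796 and 2479, where fewer libraries separate more easily. The median log2 change of all tested genes was −0.07 with TMM and 0.17 with library totals, so the directions given are relative to that shift. The shares called are no reference for full separation. For a gene without ties, a share of 0.1 of the 20 regroupings of 3 against 3 libraries separates fully, whatever the labels.

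The distance between separated groups was short. This gap, measured on log2 CPM from the lowest library of the higher group to the highest library of the lower group, had a median of 0.13 for genes higher in Co-H and 0.13 for genes lower. It reached 0.5 in 72 genes higher and 125 lower, and 1, a 2-fold gap, in 8 and 15. Of the separated genes 22.9% of those higher and 16.8% of those lower were at least 2-fold apart in group means.

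Which genes were separated depended most on Co-H 1. Co-H 2 and Co-H 3 both lay above all Co-L libraries in 3392 genes, and Co-H 1 did so too in 1435 of these (42.3%). It lay within the Co-L range in 1485 and below it in 472. In 4118 genes Co-H 2 and Co-H 3 lay below all Co-L libraries, with Co-H 1 also below in 1998 (48.5%), within the range in 1751 and above it in 369. Co-H 2 and Co-H 3 were thus beyond all Co-L libraries in 7510 genes, 50.6% of those tested. These counts use the scaling of all 12 libraries. With factors and filter recomputed without Co-H 1 the direction turned, as given above, so which direction held more genes is not settled by them. The other choices of 2 Co-H libraries gave fewer, 3939 for Co-H 1 with Co-H 3 and 4224 for Co-H 1 with Co-H 2.

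Separation was not most frequent among the largest changes. For genes higher in Co-H it held for 4.18% of those with a log2 change under 0.25, 40.0% between 0.5 and 1, and 27.9% at 2 or more. For genes lower in Co-H it was 4.35%, 50.1% and 18.6%. The median SD pooled over the groups was 0.40 and 0.36 between 0.5 and 1, and 1.09 and 1.52 at 2 or more, so the spread grew with the change. Median levels fell over the same steps, from 13.3 and 17.25 CPM to 2.01 and 1.13 CPM. The median pooled SD was 0.65 for all genes under 1 CPM and 0.25 at 10 to 100 CPM. The part of abundance in the wider spread was not tested. Over all tested genes the median ratio of the difference of group means to this pooled SD was 1.08, and the difference exceeded 2 pooled SD in 2718 genes (18.3%). Of the summed squares of log2 CPM over the 6 libraries 30.9% lay between the groups. Any split of these libraries into equal groups holds some of the squares, and how much of this share goes with fertility was not tested.

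In the edgeR quasi-likelihood test 365 genes rose and 344 fell in Co-H (Benjamini-Hochberg adjusted p under 0.05, 14839 genes tested). The smallest adjusted p of all was 0.0292, so every call lay between that value and the threshold of 0.05. The 2 sets differed in make-up. Genes that rose had a median level of 23.6 CPM and a median log2 change of 1.32, with an SD of 0.22 in Co-L and 0.70 in Co-H. Genes that fell had a median level of 65.4 CPM, a median fall of 0.92 in size on the log2 scale, and an SD of 0.34 in Co-L and 0.24 in Co-H. Groups were separated in 341 of the 344 genes that fell and in 278 of the 365 that rose. In all 87 genes that rose without separation, Co-H 2 and Co-H 3 lay above every Co-L library. Co-H 1 was the lowest Co-H library in 350 of the 365 (95.9%), and Co-L 3 the highest Co-L library in 286 of the 344 that fell (83.1%). Over all tested genes these 2 were also often the outlying library of their group, in either direction, Co-H 1 in 56.65% and Co-L 3 in 45.7%.

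The number of calls changed with single libraries. Leaving out Co-H 1 raised it to 3110 and leaving out Co-L 1 to 1131. It was 7 when Co-L 2 was dropped and 1 when Co-L 3 was dropped. Dropping Co-H 2 or Co-H 3 left 0 in edgeR, where 2550 and 2904 genes had an unadjusted p under 0.05. A fit of the 6 Co libraries alone called 1 gene. The endometrium libraries enter the estimate of the spread, and dropping any 1 of them left 0 to 2 in edgeR, with 4002 to 4275 genes at an unadjusted p under 0.05. Each run with a library left out also recomputed the count filter and tested 15075 to 15181 genes. The fit of the 6 Co libraries alone tested 13502. With every library kept but no count filter, edgeR called 3. The runs with a library left out changed the filter and the library together, and the part of each was not tested. Other tools called more, 2271 genes in DESeq2 and 4543 in limma-voom with its quality weights. With library totals 1114 genes were called higher and 176 lower.

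**Figure D2:**
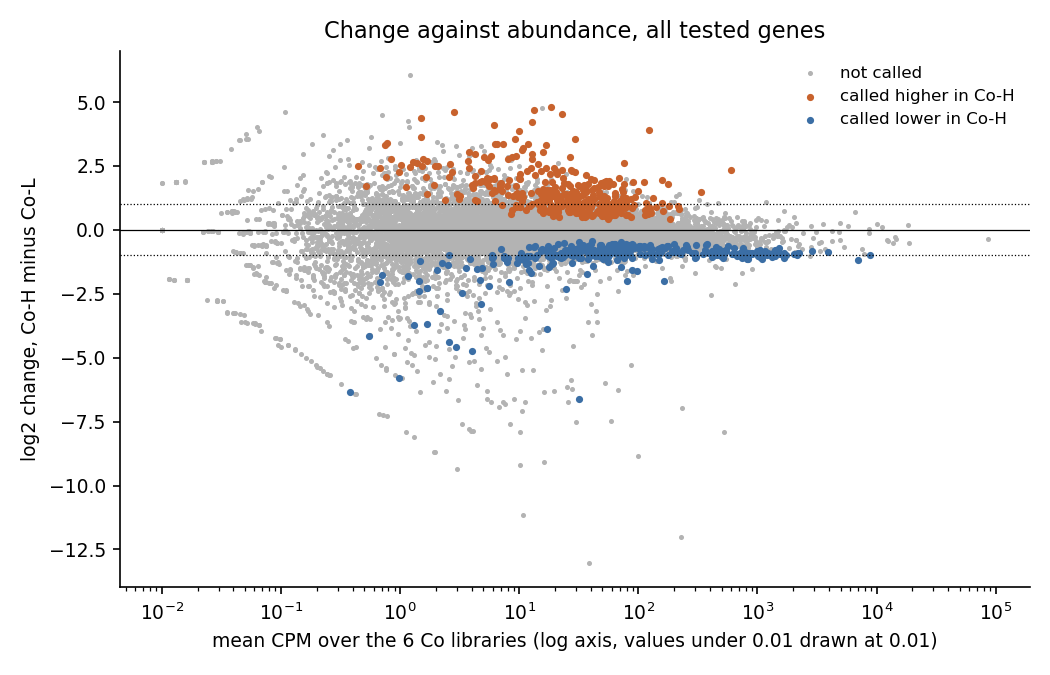
Each point is 1 of the 14839 tested genes, with its mean CPM over the 6 Co libraries on a log axis and its log2 change, Co-H minus Co-L, and dotted lines at 2-fold. The 365 genes called higher (orange) spread over a wide range of change at moderate levels, while the 344 called lower (blue) reach further into the abundant genes with smaller changes.

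The abundant genes of the ovarian tissue stood lower in Co-H. Of the 125 genes at 1000 CPM or more, which held 39.9% of the counts, 63 had all Co-H libraries below all Co-L libraries and 2 the reverse. Their median log2 change was −0.51, and edgeR called 39 lower and 0 higher, with 68 and 2 at an unadjusted p under 0.05. DESeq2 called 59 lower and 1 higher, and limma-voom 80 and 2. The class was formed on the mean of both groups, which does not fix a direction. The median was negative under every alternative run, from −0.67 in limma-voom to −0.27 with library totals, where 54 genes were separated lower and 11 higher. Calls in the class changed when single libraries were left out, where the count filter also changed. Without Co-H 1 edgeR called 61 lower and 1 higher. In edgeR 1 gene was called without Co-L 2, and 0 without a count filter or any 1 endometrium library (65 to 69 genes lower at an unadjusted p under 0.05). With the 6 Co libraries alone and without Co-L 3, Co-H 2 or Co-H 3 edgeR also called 0, with 54 or 55 genes lower at an unadjusted p under 0.05 and medians of −0.45, −0.38, −0.46 and −0.42.

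Genes at 100 to 1000 CPM numbered 1685 and had a median of −0.23, with 448 separated lower, 105 higher, 103 called lower and 21 higher. Of the class 26.6% were separated lower, 6.23% higher and 7.36% called, beside 13.5%, 9.67% and 4.78% over all tested genes. The direction of the class turned with scaling, since library totals gave a median of 0.01, with 222 separated lower and 300 higher. The calls became 415 lower and 103 higher without Co-H 1. In edgeR 0 were left in either direction without Co-L 3, Co-H 2 or Co-H 3 and with the 6 Co libraries alone, where 306 to 333 genes were lower and 81 to 126 higher at an unadjusted p under 0.05. In the class of 10 to 100 CPM, which held 7463 genes, 883 were separated higher and 1036 lower, and 259 were called higher and 161 lower. Shares here were 11.8% separated higher, 13.9% lower and 5.63% called, near the 9.67%, 13.5% and 4.78% over all tested genes. Here too the direction of separation turned, to 1679 higher and 425 lower with library totals and to 1119 and 870 with the 6 Co libraries alone. The calls were 764 higher and 65 lower with library totals and 1232 and 586 without Co-H 1. They were 0 higher and 1 lower in edgeR without Co-L 3, and 0 without Co-H 2 or Co-H 3, with 1158 and 554, 800 and 611, and 851 and 708 genes higher and lower at an unadjusted p under 0.05. Below 1 CPM 42.5% of 1505 genes were at least 2-fold apart, but 10.5% were separated and 0.864% called. The median SD there was 0.62 in Co-L and 0.52 in Co-H, against 0.22 in each at 10 to 100 CPM. Few counts therefore limit what can be seen in the rarest genes.

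**Figure D3:**
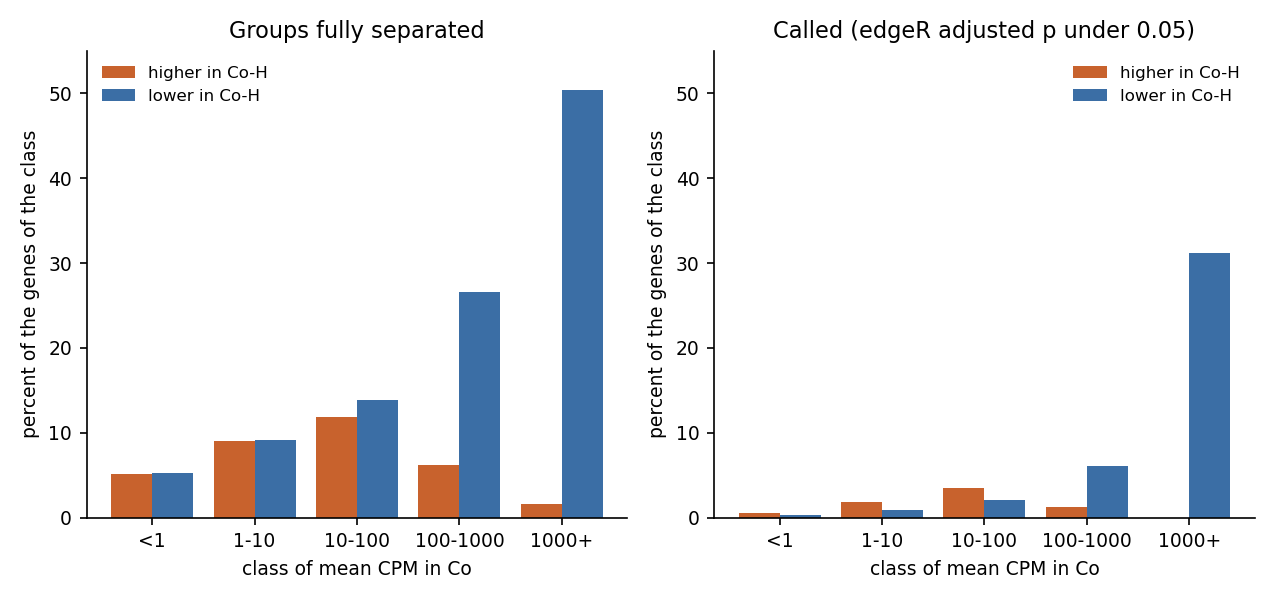
Percent of the genes in each class of mean Co CPM whose groups were fully separated (left) or called by edgeR (right), higher (orange) or lower (blue) in Co-H. In the class of 1000 CPM or more 50.4% of genes were separated lower and 1.60% higher. At 1 to 10 CPM 367 genes were separated higher and 371 lower, a balance that library totals turned to 572 and 165, and 77 were called higher and 36 lower.

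Counts were concentrated in few genes: 300 held 50% of the Co counts and 4765 held 90%. The 100 most abundant took 37.0%, 41.9% and 38.3% of the counts in Co-L 1, 2 and 3 and 38.5%, 35.6% and 34.9% in Co-H 1, 2 and 3, each with a 95% Wilson interval of at most 0.0268 percentage points to either side. Co-H 1 was again within the Co-L range, and Co-H 2 and Co-H 3 below it.

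The most abundant gene, ENSBTAG00000043561, stood at 86340, 120146 and 87045 CPM in Co-L 1, 2 and 3 and at 85094, 73004 and 69992 CPM in Co-H 1, 2 and 3. The groups did not overlap, but Co-H 1 was just below Co-L 1, and the gene was not called (log2 difference −0.36, SE 0.22, edgeR adjusted p = 0.287). The next, ENSBTAG00000043560, stood at 17761, 23276 and 25292 CPM in Co-L and 17013, 15381 and 14114 CPM in Co-H, again with Co-H 1 closest to Co-L (log2 difference −0.51, SE 0.20, edgeR adjusted p = 0.118). DESeq2 and limma-voom called the latter (adjusted p = 0.0276 and 0.0152), and limma-voom the former (adjusted p = 0.023).

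Spread within groups was wider in Co-L than in T-L, and wider in Co-H than in T-H with TMM scaling. The median SD of log2 CPM over 3 libraries was 0.28 for Co-L, 0.27 for Co-H, 0.20 for T-L and 0.21 for T-H. With library totals it was 0.30, 0.25, 0.21 and 0.25 in the same order, so that Co-H and T-H were then nearly alike. Co-L was more spread than T-L in 64.6% of genes and Co-H more than T-H in 58.8%, a description with no test. Since the edgeR model shares 1 estimate of the spread over both tissues, the endometrium libraries bear on the Co calls. An SD of 1 or more was found for 1115 genes of Co-L, 876 of Co-H, 393 of T-L and 748 of T-H. Within Co-L the library farthest from the middle one was Co-L 3 in 45.7% of genes, and within Co-H it was Co-H 1 in 56.7%. Where Co-H 1 was at least 2-fold from the middle Co-H library, it was the lowest in most genes, being the highest in 174 of 1270. Co-L 3 in the same position was the highest in 712 of 1140.

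**Figure D4:**
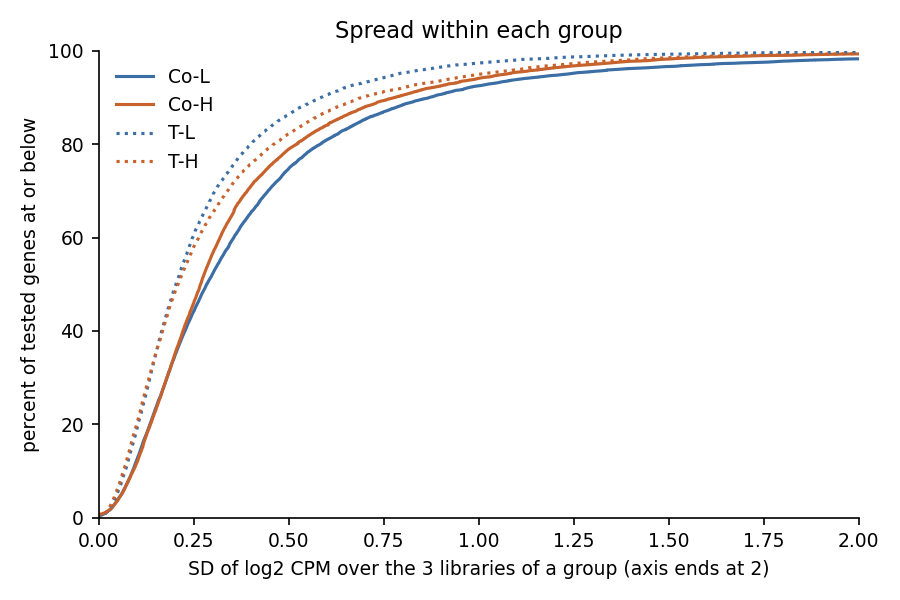
Cumulative percent of the 14839 tested genes against the SD of log2 CPM (TMM-scaled) over the 3 libraries of each group. With this scaling the Co curves (solid) lie to the right of the endometrium curves (dotted) over most of the range, with medians of 0.28 and 0.27 against 0.20 and 0.21.

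Each library set against the mean of the opposite group showed which of them made the difference. From the Co-L mean 227 genes were at least 2-fold higher and 1007 lower in Co-H 1, against 1237 and 1077 in Co-H 2 and 1329 and 877 in Co-H 3. From the Co-H mean 1698 genes were at least 2-fold higher and 1397 lower in Co-L 3, against 529 and 913 in Co-L 1 and 787 and 791 in Co-L 2. Co-H 1 thus had few genes 2-fold above the Co-L mean, although the number below was close to that of the other Co-H libraries. That mean includes Co-L 3. Counting both directions, Co-H 1 was at least 2-fold apart from Co-L 1, 2 and 3 singly in 967, 1386 and 2801 genes. The part of Co-L 3 in the number below the mean was not tested.

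The genes with the widest gaps show what full separation looked like at its clearest, where Co-H 1 lay with Co-H 2 and Co-H 3. They were picked for that gap among genes with a mean of at least 2 CPM, so their separation is a description. What they encode is not given by the files.

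ENSBTAG00000011985 had the widest gap of all, 3.17 on the log2 scale. It stood at 1.17, 0.98 and 1.86 CPM in Co-L 1, 2 and 3 (17, 13 and 19 counts) and at 17.9, 27.8 and 27.4 CPM in Co-H 1, 2 and 3 (192, 484 and 348 counts). Every Co-H library was far above every Co-L library, while the SD of log2 CPM was 0.43 within Co-L and 0.36 within Co-H. It rose by 4.20 on that scale (SE 0.58, edgeR adjusted p = 0.0463), and it was the only gene also called with the 6 Co libraries alone (adjusted p = 0.0398). The call was lost in edgeR without Co-L 2, Co-L 3, Co-H 2 or Co-H 3 (adjusted p = 0.0843, 0.134, 0.214 and 0.172), while the log2 change stayed between 4.07 and 4.56 with any 1 Co library left out.

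The next widest gap upward, 1.20, was that of ENSBTAG00000039321. It stood at 3.39, 4.07 and 3.72 CPM in Co-L and 10.3, 11.9 and 9.54 CPM in Co-H, with little spread in either group. The gene rose by 1.504 on the log2 scale (SE 0.37, edgeR adjusted p = 0.0479), a change of 1.41 to 1.62 with 1 Co library left out. Its adjusted p was 0.172 with the 6 Co libraries alone, and 0.0245 to 0.214 with 1 Co library left out, under 0.05 only without Co-H 1. In the 6 endometrium libraries it stayed at 0.603 CPM or less.

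Downward, ENSBTAG00000004948 had the widest gap, 1.54. It stood at 4.77, 3.62 and 8.52 CPM in Co-L 1, 2 and 3 and at 1.03, 1.15 and 0.788 CPM in Co-H, from 10 to 20 counts per Co-H library. Co-L 3 was the highest, but Co-L 1 and Co-L 2 were also above every Co-H library. The gene fell by 2.47 on the log2 scale (SE 0.36, edgeR adjusted p = 0.0463) and without Co-L 3 the difference was −1.999, with an adjusted p of 0.134. It was also lost with the 6 Co libraries alone and without Co-H 2 or Co-H 3 (adjusted p = 0.172, 0.214 and 0.172). In endometrium it stood far higher than in either Co group, at 131 to 284 CPM.

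ENSBTAG00000009812 followed with a gap of 1.52. It stood at 9.61, 14.2 and 18.8 CPM in Co-L 1, 2 and 3 and at 3.26, 2.07 and 2.36 CPM in Co-H. The groups were well apart, yet it was not called (log2 difference −2.47, SE 0.73, edgeR adjusted p = 0.0628). DESeq2 and limma-voom called it (adjusted p = 0.0064 and 0.00472). Its endometrium libraries, which share in the estimate of its spread, ranged from 0.901 to 17.5 CPM, with T-H 1 the highest. With the 6 Co libraries alone it was not called either (edgeR adjusted p = 0.172).

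**Figure D5:**
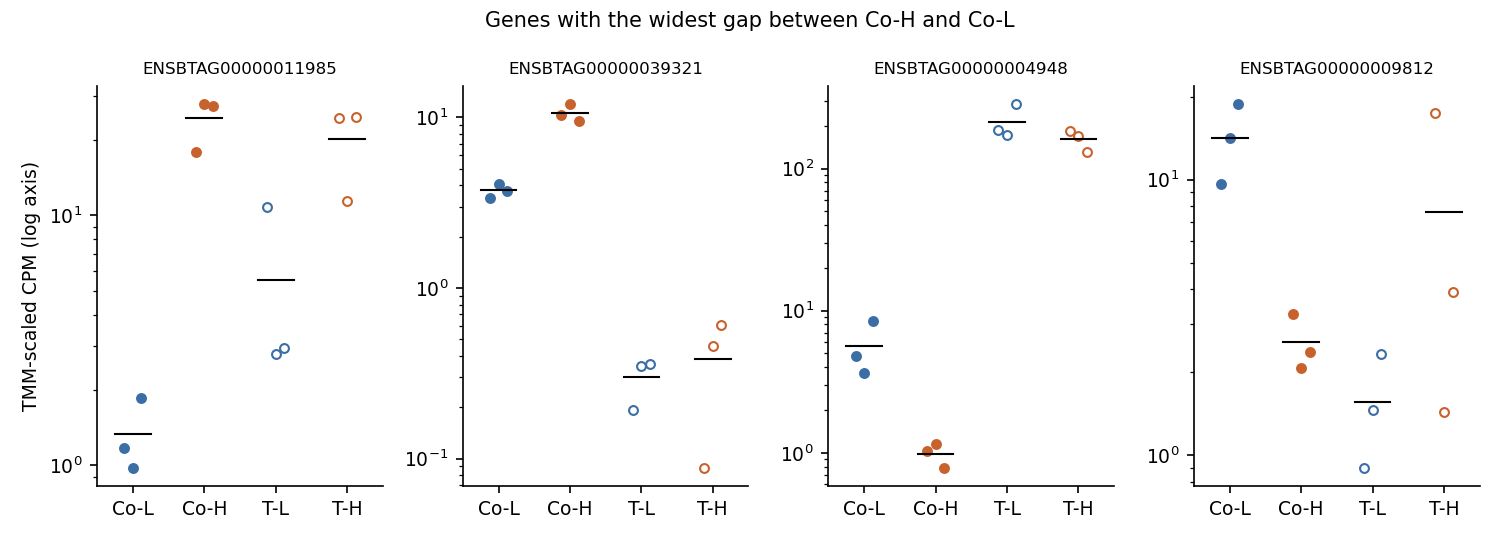
TMM-scaled CPM (log axis, a separate scale per panel) of the 4 genes with the widest gaps in each of the 12 libraries, with points for libraries and a line at each group mean. In Co (filled) the groups do not overlap in any panel. In endometrium (open) they overlap in all panels but the first, where T-H also lies above T-L.

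For these 4 genes the high against low difference was compared between endometrium and Co. In the order given, the log2 difference in endometrium minus that in Co was −2.34, −1.11, 2.07 and 4.76 (SE 0.74, 0.65, 0.46 and 1.04). None passed the test of this quantity (edgeR adjusted p = 0.257, 0.401, 0.257 and 0.257), which does not show the tissues alike. For ENSBTAG00000009812 the log2 difference was 2.29 in endometrium and −2.47 in Co. The genes were picked on Co values that enter this test, so it cannot settle the question.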

How the data were processed

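Libraries came from Trizol-extracted total RNA and a TruSeq kit, per the labels' protocols. The authors deposited raw counts, unnormalised, for each cattle gene identifier, per the file headers. The submitters' processing notes name Bowtie 0.12.2, and the build bosTau8 for Co-H 3 and the endometrium libraries but not for the other 5 Co libraries. The counting tool, annotation and strand setting were not given in the sources used here. Near-identical or overlapping genes may share reads.

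Libraries were grouped by title. 1 blank line was passed over, and the first gene of T-H 3 was read from its header line. All 12 libraries entered edgeR 4.0.16 in R 4.3.3 (TMM, the trimmed mean of M values, filterByExpr at a minimum count of 10, 1 mean per group, quasi-likelihood test, Benjamini-Hochberg over 14839 genes). SD, gaps and components used log2 CPM with a prior count of 2. Alternatives included DESeq2 1.42.0 and limma 3.58.1. A chi-square test found no pair of Co libraries within sampling noise (at least 18.1 per degree of freedom). The script was tested on simulated data.

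Named genes are the 2 higher and 2 lower with the widest gap among separated genes of at least 2 CPM, and the 2 most abundant. Lists of pathway and marker genes could not be used without symbols. The comparison, lists and rules were chosen with earlier results of these data known. Abundance classes, single-library genes and counts by library were chosen after the data were seen.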

Additional observations from a re-analysis of the deposited data

How the results depend on the processing

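The 709 calls moved to 1290 with library totals, 3 without a count filter (4499 genes at an unadjusted p under 0.05), 1 with only the 6 Co libraries (2946), 2271 in DESeq2, which gave 658 genes no adjusted p, 4543 in limma-voom with quality weights, 2466 at an adjusted p under 0.1, and 2664 without both Co-H 1 and Co-L 3. These last 2 settings were chosen after the data were seen. Leaving out single libraries, 12 in all, the count ranged from 0 to 3110. With the replicate number as a block edgeR called 0 genes (3928 at an unadjusted p under 0.05). Whether the numbers pair these libraries is not settled. Deviations from the group means correlated across genes at 0.21, 0.019 and 0.25 for Co-L and Co-H libraries numbered 1, 2 and 3. Between libraries of unlike number the correlations were −0.34 to 0.081. Deviations from a group mean are tied to one another, so these values cannot decide it. Separated genes numbered 3976 to 7515 with 1 Co library left out and 9092 without both Co-H 1 and Co-L 3, where fewer libraries separate more easily. Genes at least 2-fold apart numbered 4515 without a count filter, 1292 (782 higher and 510 lower) with the 6 Co libraries alone, where fewer low genes are tested, 1446 higher and 758 lower with library totals, and 1878 to 2767 with 1 Co library left out. The cause of the other shifts was not tested. The median size of the log2 change stayed within 0.31 and 0.43, spread within Co groups within 1.5 times, and no named gene changed direction. Without a count filter ENSBTAG00000039321 and ENSBTAG00000004948 were no longer called (edgeR adjusted p = 0.0532 and 0.0508). Low counts limit genes under 1 CPM.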

Other observations

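Genes present in one group and wholly absent from the other were few and mostly faint. Over all 24616 genes, 42 had a count in all 3 Co-H libraries and none in Co-L, with at most 19 counts summed over Co-H. A count in all 3 Co-L libraries and none in Co-H was found for 26 genes, with up to 2379 counts summed. None of these reached 1 CPM in all 3 libraries of its group. In all, 14769 genes had a count in every Co library and 5848 in none.

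Genes outside the tested set took 0.361% of the counts of Co-L 3 and 0.0320% to 0.0708% of those of the other Co libraries. Of the 85 genes found almost only in Co-L 3, 47 were not tested.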
